A study of Mus musculus with 12 samples.

Results

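RNA was compared between mouse neural stem cells that lack E12 (E12KO, genotype E12-/-) and cells of wild-type litter mates (E12wt, genotype E12+/+). The members are the libraries whose labels give either of these genotypes, 3 E12wt and 3 E12KO, which are 6 of the 12 libraries of the study. The other 6 libraries are a knockout of the second splice form, E47 (E47KO, E47-/-), and its own wild-type litter mates (E47wt, E47+/+), and they are used here only to show whether a difference in the E12 line was also seen there. All groups were C57BL/6J cells taken at E14.5 and kept dividing in Neurobasal-A with B-27 lacking vitamin A, 20 ng/ml FGF-2 and 20 ng/ml EGF, and none received a treatment. No source used here says how the alleles were made. Nor do the labels tell if each library was a culture or embryo of its own, so p-values reflect the spread of these libraries, which may be technical.

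Alternative splicing of Tcf3 gives the transcription factors E12 and E47, which differ in their basic helix-loop-helix region and belong to the E protein family. E proteins bind DNA as dimers, often with a cell-type-specific partner such as Olig2, at a short motif called the E-box (CANNTG). Id proteins pair with E proteins and keep them off DNA. Neural stem cells grown with FGF-2 and EGF keep dividing and can give rise to neurons, astrocytes and oligodendrocytes.

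Between 40322970 and 46278857 reads fell on genes in the 6 libraries, with 18980 to 19617 genes detected by 1 read or more. Levels are given as counts per 1000000 reads (CPM), and 3 reads, taken as the limit of detection, were worth 0.0648 to 0.0744 CPM, which covers counting error only. Nes and Sox2, defining genes of neural stem cells, were present in all 6 libraries at 1150 to 1675 and 225 to 264 CPM. Of 14 microglial genes, 3 were abundant enough to test and Aif1 and Trem2 had no read in any E12 library; the list summed to 4.44 to 7.30 CPM, mostly Cd68 at 3.35 to 6.33 CPM. Of 12 endothelial genes 8 were tested, Cldn5 and Cdh5 reached at most 0.0244 CPM, and the list summed to 10.3 to 12.5 CPM, with Kdr at 3.19 to 4.16 and Ramp2 at 3.14 to 4.01 CPM. Correlations of log2 CPM within a group ran from 0.985 to 0.995, with both lowest values in pairs with E12wt replicate 3. A principal component analysis set that library apart, at 48.8 on the leading axis (49.5% of the variance) where the other 5 lay between −20.3 and 3.92. It also differed in genes of liver cells: 24 hepatocyte genes summed to 60.7 to 65.1 CPM in the other 5 libraries and to 1.74 CPM in E12wt replicate 3. Many results are therefore given with and without it, and a value given once may also depend on that library.

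Tcf3 itself was read in every library, at 76.4, 82.1 and 75.2 CPM in E12wt against 91.6, 73.3 and 101 in E12KO. The groups overlapped, and the log2 fold change of E12KO against E12wt was 0.18 ± 0.11 (SE), with a Benjamini-Hochberg (BH) adjusted p of 0.605 in the quasi-likelihood (QL) test of edgeR. Both splice forms are counted together here, so these levels are no check of the labels.

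The main question is which genes differ once E12 is lost from dividing stem cells. With edgeR QL, 6 of 14755 genes tested changed at an adjusted p under 0.05, 2 higher and 4 lower in E12KO, which is 0.0407% of the genes. The DNA repair gene Tdg fell and its pseudogene Gm9855 rose, by −1.63 and 6.91 on the log2 scale, and the type I collagen genes Col1a1 and Col1a2 fell by 1.83 and 5.28. Tdg and Gm9855 are near-identical, so it is uncertain how reads divide between them. The other members of this set are Bgn and 2610203C22Rik.

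Bgn (ENSMUSG00000031375, on chromosome X) encodes biglycan, a small leucine-rich proteoglycan that binds collagen in the extracellular matrix. It stood at 2.15, 2.63 and 1.74 CPM in E12wt and at 0.173, 0.226 and 0.189 CPM in E12KO. Every knockout library was far below every wild-type library, with 24 reads in all against 283, or 11.2 times fewer (95% exact counting interval 7.40 to 17.8). The mean level fell from 2.17 ± 0.446 to 0.196 ± 0.0271 CPM (SD, n = 3), or −3.45 ± 0.28 in log2 units (BH-adjusted p = 0.00433 by edgeR QL). With 1 library left out, the fitted change lay between −3.59 and −3.29, and the edgeR QL call was lost without E12KO replicate 2 or without E12KO replicate 3. Of the other 11 proteoglycans of this family on the list, only Prelp and Podn were abundant enough to test, at log2 fold changes of 0.30 and 0.10, and neither was called. In the E47 line Bgn was uneven within the wild type, at 2.71, 0.237 and 0.362 CPM in E47wt against 0.119, 1.02 and 0.516 in E47KO. E47wt replicate 1 was therefore the only library of that line at the E12wt level.

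The transcript 2610203C22Rik (ENSMUSG00000079671, on chromosome 1), annotated as a processed transcript without a coding sequence, was the other gene to rise. It was at 0.456, 0.512 and 0.413 CPM in E12wt and at 1.68, 2.84 and 2.76 CPM in E12KO. The wild-type libraries lay close together, and all knockout libraries lay above them. The log2 fold change was 2.39 ± 0.28 (edgeR QL, BH-adjusted p = 0.0376), and 298 reads stood against 60 (ratio 5.21, counting interval 3.94 to 7.0). It was the only called gene besides Tdg and Gm9855 whose E47 groups did not overlap in the same direction, at 0.465, 0.409 and 0.532 CPM in E47wt against 1.96, 0.8 and 1.87 in E47KO. With 1 library left out, edgeR QL called it only without E12KO replicate 1, while DESeq2 called it in all 6 such fits, with log2 fold changes of 2.27 to 2.60.

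Several genes of connective tissue were low in E12wt and lower still in E12KO beside Bgn and the type I collagens. They did not pass edgeR QL but were called by DESeq2, and those under a mean of 1 CPM were chosen after their values were seen. Postn, which encodes the matrix protein periostin, had 1.41, 1.66 and 0.665 CPM in E12wt against 0.0496, 0.0503 and 0.118 in E12KO, resting on 162 and 9 reads (ratio 17.1, counting interval 8.81 to 38.2). Col3a1, the chain of type III collagen, had 0.542, 1.00 and 0.436 CPM in E12wt against 0.0248, 0.0251 and 0.0472 in E12KO, all 3 knockout values under the limit of detection. Lox, the enzyme that crosslinks collagen, had 2.30, 1.22 and 1.12 CPM in E12wt against 0.223, 0.201 and 0.0707 in E12KO. None of these groups overlapped, and the log2 fold changes were −4.03 ± 0.51 for Postn, −4.21 ± 0.57 for Col3a1 and −3.22 ± 0.46 for Lox, with BH-adjusted p-values of 0.0686, 0.0686 and 0.0835 by edgeR QL and 4.21e-06, 0.00225 and 4.99e-06 by DESeq2.

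S100a6, a calcium-binding protein found in fibroblasts, showed the same order, at 1.19, 1.05 and 0.642 CPM in E12wt against 0.0496, 0.201 and 0.0943 in E12KO (126 and 14 reads). Il1rl1, the receptor of interleukin 33, had 64 reads in E12wt and 1 in E12KO, which puts the ratio at 61.0 but leaves it between 10.6 and 2445 by counting error. Tagln, an actin-binding protein of smooth muscle, was at 3.43, 3.44 and 4.75 against 2.33, 1.91 and 1.30 CPM. Its log2 fold change was −1.07 ± 0.25, or −0.90 without E12wt replicate 3. These 3 were called by DESeq2 only, with BH-adjusted p-values of 0.000929, 0.00808 and 0.0269 against 0.125, 0.0713 and 0.484 by edgeR QL. In the E47 line, Postn, Col3a1, Lox, S100a6 and Il1rl1 were each highest in E47wt replicate 1, at 1.40, 1.26, 1.12, 1.48 and 1.26 CPM. The other 5 libraries reached at most 0.0430, 0.196, 0.469, 0.469 and 0.0239 CPM. Tagln overlapped there, at 3.83, 1.85 and 1.11 CPM in E47wt against 3.94, 3.15 and 1.80 in E47KO. Of 9 tested pericyte and smooth muscle genes, Tagln among them, 4 lay above 0 in the E12 comparison and 5 below. Their median was −0.01, or −0.23 without E12wt replicate 3.

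**Figure D1:**
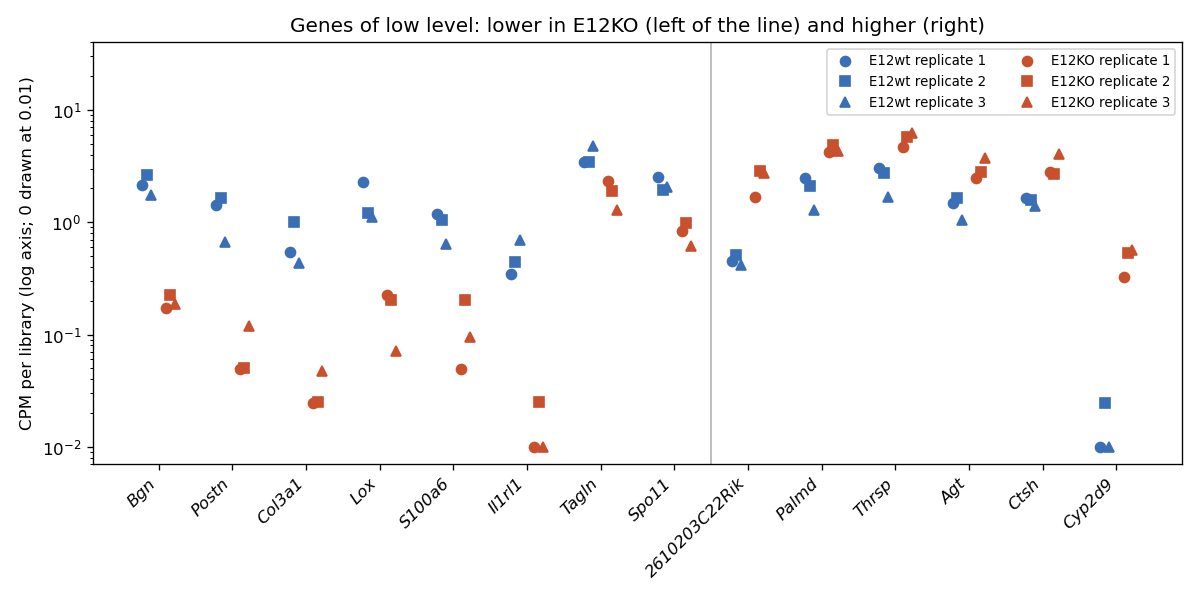
CPM in each E12 library (log axis, values of 0 drawn at 0.01) of 14 genes of low level, blue for E12wt and red for E12KO, with a marker shape for each replicate number. All 8 genes to the left of the line were lower in every E12KO library than in every E12wt library, and all 6 to the right were higher.

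Other genes of connective tissue lay on both sides of 0. Of 31 genes of fibroblast matrix (the type I collagens and Bgn not among them), 21 were tested, 13 of them above 0, with a median log2 fold change of 0.03, or −0.14 without E12wt replicate 3. Over all genes tested 51.4% lay above 0 and the median was 0.00. In 7 of the 21 the groups did not overlap, all 7 lower in E12KO, where 6.66% of all genes tested were separated in that direction. The other 4 were Loxl2, Mfap2, Col6a1 and Mfap4, with log2 fold changes of −0.75, −0.57, −0.67 and −0.56, none called by either tool. The abundant members stood near 0: Fbln2, a fibulin of elastic fibres, had 504, 781 and 521 CPM in E12wt against 652, 736 and 715 in E12KO, and Sparc had a log2 fold change of 0.21. The sum over the whole list was 1128 to 1710 CPM in E12wt and 1429 to 1743 CPM in E12KO. Of 15 transcription factors of mesenchymal cells, Tcf21 had no read, and Foxd1, Osr1, Meox2 and Foxc2 stayed at or under 0.0688 CPM. The most abundant, Prrx1, was at 20.3, 21.1 and 21.2 CPM in E12wt against 16.9, 21.3 and 16.8 in E12KO. Of the 6 tested, 4 lay above 0, with a median of 0.25, or 0.03 without E12wt replicate 3. In 1 of the 6 the groups were separate and higher in E12KO (7.11% of all genes). Fewer cells of a type and less RNA per cell cannot be told apart in such bulk samples, and the part of other cell types in these differences was not tested.

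DESeq2, run on the same counts, called 76 of 14754 genes, 29 higher and 47 lower in E12KO (0.515% of the genes, 0.197% higher and 0.319% lower), among them all 6 called by edgeR QL. At an unadjusted p under 0.05, edgeR QL had 633 genes higher and 689 lower, 8.96% in all. In 75 of the 76 the 3 knockout libraries lay on one side of the 3 wild-type libraries, which held for 13.8% of all genes tested. The exception was Plppr1, with 16.2 CPM in E12wt replicate 2 and 16.3 CPM in E12KO replicate 1. Most differences were small: 10 of the 76 had a log2 fold change of at least 2 in size, 21 of at least 1, and 18 were under 0.5, down to 0.28. In the authors' deposited table, which lists 12089 genes, 62 were called, and 60 of these were among the 76.

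Per-library levels of the 75 genes showed an order within each group. In the 29 higher genes, E12wt replicate 3 was the lowest wild-type library 20 times and E12KO replicate 1 the lowest knockout library 19 times. In the 46 lower genes, E12wt replicate 3 was the highest wild-type library 28 times and E12KO replicate 1 the highest knockout library 31 times. E12KO replicate 3 was the most distant knockout library, the highest in 16 of the higher genes and the lowest in 33 of the lower ones. The fitted direction of all 76 stayed the same with any 1 of the 6 libraries left out. The calls were less firm: DESeq2 called 19 genes without E12KO replicate 3, 34 without E12KO replicate 2, 42 without E12wt replicate 3 and 50 without E12wt replicate 1, but 214 without E12KO replicate 1 and 421 without E12wt replicate 2. Of the 76, 13 were called in all 6 of these fits: Tdg, Gm9855, Col1a1, 2610203C22Rik, Adamts3, Lynx1, Galnt16, Fosb, Nptx1, Gfra1, Id2, Car8 and Cd109.

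**Figure D2:**
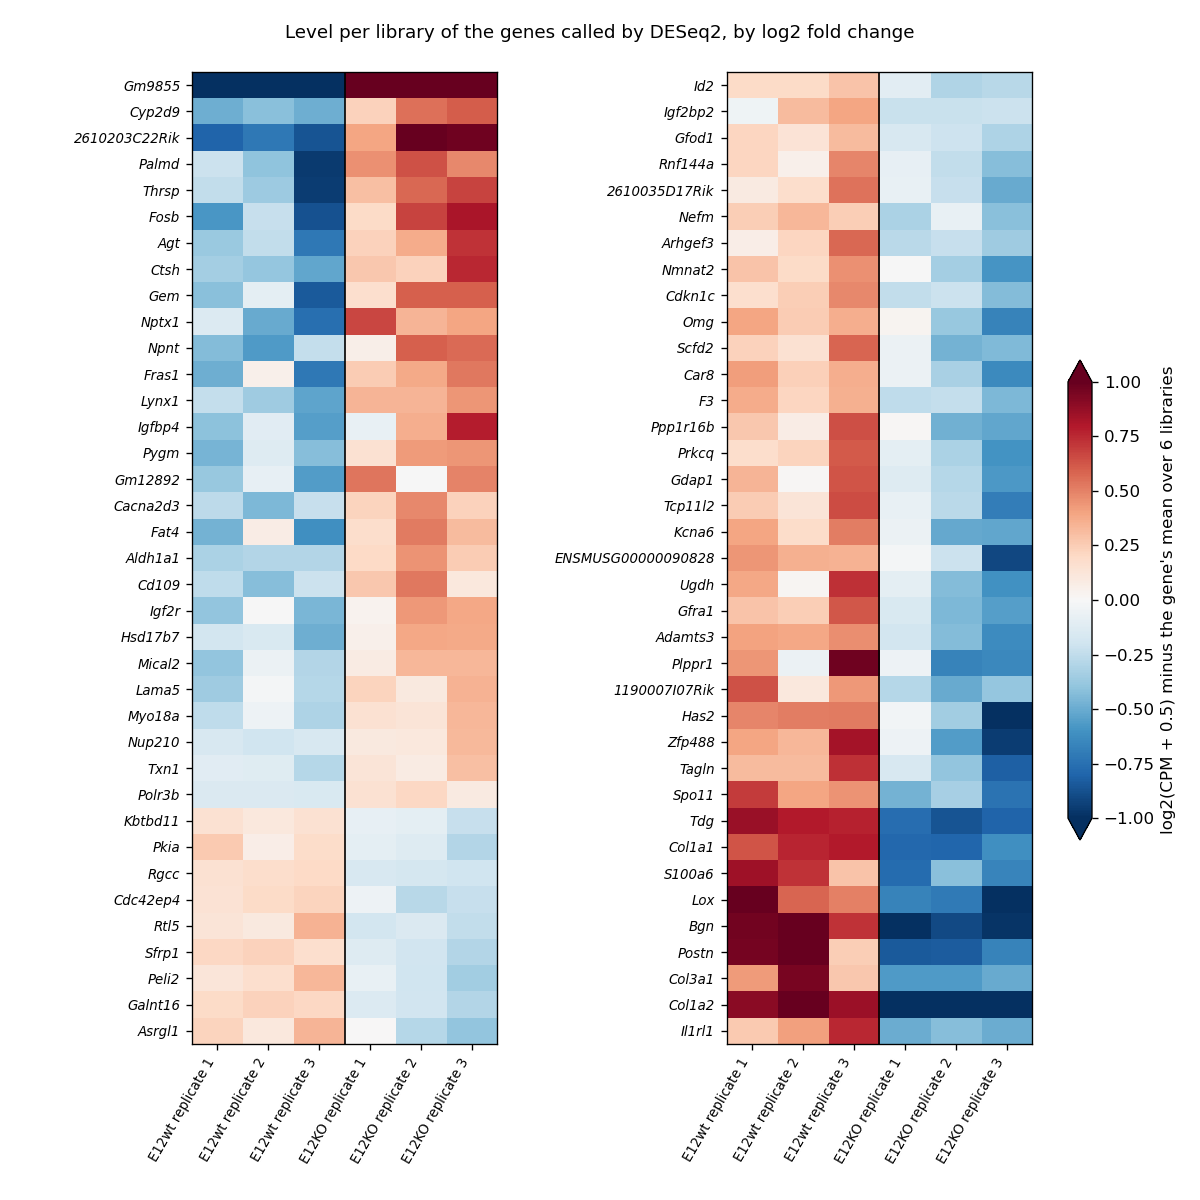
Level of 74 of the 76 genes called by DESeq2 in each E12 library, as log2(CPM + 0.5) minus the mean of the gene over the 6 libraries, ordered by log2 fold change from the top left to the bottom right (red is above the mean, blue below; the scale ends at −1 and 1). Among the higher genes E12wt replicate 3 is often the deepest blue, and among the lower genes E12KO replicate 1 is often the palest of the knockout libraries.

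Genes that act on matrix and cell surface outside the collagens were among the lower calls, and 2 of them, Adamts3 and Galnt16, were among the steadiest. The grouping by function in this and the next paragraphs was made after the values were seen. Adamts3, a secreted protease that trims procollagens and activates the growth factor VEGF-C, was at 46.8, 46.5 and 48.9 CPM in E12wt against 31.0, 26.0 and 22.7 in E12KO. Wild-type levels differed by little, and no knockout library came near them. The log2 fold change was −0.83 ± 0.11, just outside the threshold with edgeR QL (BH-adjusted p = 0.0686) and inside it with DESeq2 (1.49e-08). Galnt16, an enzyme that starts O-linked glycosylation, had 123, 127 and 124 CPM in E12wt against 97.9, 94.6 and 87.8 in E12KO, a log2 fold change of −0.42 ± 0.06 (BH-adjusted p = 0.091 by edgeR QL and 4.71e-06 by DESeq2). Both genes of hyaluronan synthesis in the set were lower as well. Has2, a hyaluronan synthase, was at 12.3, 12.5 and 12.6 CPM in E12wt against 8.47, 6.68 and 3.65 in E12KO. Ugdh, which makes a sugar precursor of hyaluronan, was at 128, 98.7 and 163 CPM in E12wt against 91.3, 72.1 and 63.9 in E12KO, and E12wt replicate 3 raised its log2 fold change from −0.59 to −0.78 in size. F3, the tissue factor that starts coagulation, was lower by −0.67. With 1 library left out, DESeq2 called Has2, Ugdh and F3 in 3, 2 and 4 of the 6 fits.

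Some extracellular and adhesion genes were called higher by DESeq2. Lama5, a laminin chain, was at 47, 59.5 and 49.4 CPM in E12wt against 70.3, 64.4 and 76.9 in E12KO. Npnt, an integrin ligand of basement membranes, was at 5.42, 4.90 and 6.29 CPM in E12wt against 7.83, 11.6 and 11.3 in E12KO. Fras1, another extracellular protein that sits beneath epithelia, was at 6.40, 9.51 and 5.39 CPM in E12wt against 11, 12.1 and 13.4 in E12KO. No wild-type library reached the lowest knockout library in any of them, and the log2 fold changes were 0.44 ± 0.10, 0.89 ± 0.18 and 0.78 ± 0.20 (DESeq2, BH-adjusted p = 0.0373, 0.00265 and 0.0398). The giant cadherin Fat4 and the membrane protein Cd109 were also called higher by DESeq2, with log2 fold changes of 0.66 ± 0.18 and 0.62 ± 0.12. Of 17 laminin and basement membrane genes, 16 were tested, 12 lay above 0 (51.4% of all genes) and the median was 0.30, or 0.17 without E12wt replicate 3; DESeq2 called Lama5 alone. In 3 chains the groups were separate, Lama5, Lamb2 and Lamc1, all higher, against 7.11% of all genes tested in that direction.

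Several genes with roles in neurons or in the oligodendrocyte lineage were among the 47 lower calls of DESeq2. Of the lists of such genes, 1 of 15 tested neuronal markers (Nefm) and 0 of 12 oligodendrocyte lineage markers were called lower, against 0.319% of all genes. Gfra1, a receptor subunit for the growth factor GDNF, was at 27.1, 26.3 and 34.2 CPM in E12wt against 19.8, 16.1 and 14.9 in E12KO, a log2 fold change of −0.79 ± 0.14 (BH-adjusted p = 0.276 by edgeR QL and 0.000143 by DESeq2). Kcna6, a voltage-gated potassium channel, was at 33.8, 29.1 and 36.8 CPM in E12wt against 24.6, 17.8 and 17.8 in E12KO. Zfp488, a repressor that acts in oligodendrocyte differentiation, was at 16.2, 15.5 and 22.1 CPM in E12wt against 11.7, 8.09 and 6.06 in E12KO. In each of these 3 genes E12wt replicate 3 was the highest library, and without it the log2 fold changes were −0.66, −0.66 and −0.88. Nefm, a neurofilament subunit, was at 9.07, 9.66 and 9.06 CPM in E12wt against 5.97, 7.16 and 5.54 in E12KO, and here E12wt replicate 3 did not stand out. Omg, a glycoprotein of oligodendrocytes and neurons, Nmnat2, an NAD-making enzyme that keeps axons alive, and Gdap1, a mitochondrial protein linked to nerve disease, had log2 fold changes of −0.66, −0.62 and −0.69. Without E12wt replicate 3 these were −0.65, −0.55 and −0.53. Car8, a protein related to carbonic anhydrases, had a log2 fold change of −0.67 ± 0.13.

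The neural genes called by DESeq2 were not all lower. Nptx1, a secreted pentraxin that gathers glutamate receptors at synapses, was at 22.8, 17.6 and 14.7 CPM in E12wt against 40.2, 31.9 and 33.1 in E12KO, a log2 fold change of 0.93 ± 0.16 (BH-adjusted p = 0.241 by edgeR QL and 2.15e-05 by DESeq2). Lynx1, a membrane protein that dampens nicotinic acetylcholine receptors, was at 15, 13.8 and 12.2 CPM in E12wt against 22.7, 22.6 and 24.3 in E12KO. The knockout libraries of Lynx1 were close together, and the log2 fold change was 0.76 ± 0.10 (BH-adjusted p = 0.0686 by edgeR QL and 7.59e-08 by DESeq2). Cacna2d3, an auxiliary calcium channel subunit, was higher by 0.67 ± 0.13.

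Among regulators, Id2, which encodes a partner that keeps E proteins off DNA, was at 58.7, 58.7 and 62.7 CPM in E12wt against 47.7, 41.5 and 42.2 in E12KO. The difference was small but even across libraries, with a log2 fold change of −0.45 ± 0.08 (BH-adjusted p = 0.223 by edgeR QL and 0.000335 by DESeq2). Fosb, a subunit of the transcription factor AP-1 that is switched on quickly by growth signals, was at 18.5, 23.8 and 15.1 CPM in E12wt against 31.9, 44.9 and 49.4 in E12KO. All knockout libraries exceeded all wild-type libraries, and the log2 fold change was 1.14 ± 0.20 (BH-adjusted p = 0.241 by edgeR QL and 4.21e-06 by DESeq2). Cdkn1c, an inhibitor of cyclin-dependent kinases, was at 7.46, 7.90 and 9.43 CPM in E12wt against 5.48, 5.63 and 4.76 in E12KO. Sfrp1, a secreted protein that binds Wnt ligands, was at 36.5, 37.0 and 35.6 CPM in E12wt against 28.9, 27.7 and 25.7 in E12KO, one of the narrowest spreads in the set. Gem, a small GTPase that restrains calcium channels, was higher by 0.95 ± 0.21, and Prkcq, a protein kinase C, was lower by −0.68 ± 0.15. The Prkcq value was −0.53 without E12wt replicate 3.

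Genes of metabolism were called by DESeq2 in both directions. Asrgl1, an enzyme that breaks down asparagine, was lower, at 339.9, 312 and 368 CPM in E12wt against 291, 238 and 221 in E12KO. Others were higher. Thrsp, a nuclear protein that promotes fatty acid synthesis, was at 3.04, 2.76 and 1.67 CPM in E12wt against 4.66, 5.75 and 6.20 in E12KO, a log2 fold change of 1.15 ± 0.23 (DESeq2, BH-adjusted p = 0.00265) that was 0.93 without E12wt replicate 3. Pygm, a glycogen phosphorylase, was at 4.25, 5.49 and 4.38 CPM in E12wt against 6.79, 8.32 and 8.39 in E12KO. These groups were apart, with E12wt replicate 3 the lowest library for Thrsp. Aldh1a1, an enzyme that makes retinoic acid, had nearly equal wild-type levels of 4.97, 5.05 and 5.05 CPM and knockout levels of 7.31, 8.80 and 7.59 CPM, a log2 fold change of 0.65 ± 0.12 (DESeq2, BH-adjusted p = 0.00652). Txn1, a thioredoxin, had the highest mean CPM of the higher calls, at 637, 633 and 566 CPM in E12wt against 755, 730 and 848 in E12KO.

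The growth factor Igf2 and its binding partners lay on opposite sides of 0. Igf2 had 1.17, 0.756 and 0.505 CPM in E12wt against 0.124, 0.126 and 0.354 in E12KO, with a log2 fold change of −1.99 that neither tool called. Igf2r, the receptor that clears Igf2, was at 49.0, 64.3 and 46.8 CPM in E12wt against 66.1, 87.0 and 84.3 in E12KO. Igfbp4, a secreted binding protein, was at 72.3, 89.1 and 65.4 CPM in E12wt against 91.4, 124 and 166 in E12KO. Igf2r and Igfbp4 were called higher by DESeq2 (BH-adjusted p = 0.0277 and 0.0251), and Igf2bp2, an RNA-binding protein named for Igf2 messenger RNA, was called lower, at −0.46 ± 0.11. Of 13 tested genes of this system, 11 lay above 0 (51.4% of all genes), 4 of them with separate groups (7.11% of all genes), and the median of 0.28 was 0.14 without E12wt replicate 3.

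A few called genes belong to none of these groups. Palmd, which encodes the membrane-associated protein palmdelphin, was at 2.47, 2.12 and 1.28 CPM in E12wt against 4.24, 4.88 and 4.34 in E12KO, a log2 fold change of 1.19 ± 0.23 (BH-adjusted p = 0.356 by edgeR QL and 0.00265 by DESeq2). Spo11, known for making the DNA breaks of meiosis, was at 2.52, 1.95 and 2.04 CPM in E12wt against 0.842, 0.980 and 0.613 in E12KO, a log2 fold change of −1.42 ± 0.24 (DESeq2, BH-adjusted p = 0.00266). Agt, which encodes angiotensinogen and is made by liver cells and astrocytes, was at 1.48, 1.66 and 1.06 CPM in E12wt against 2.5, 2.81 and 3.73 in E12KO. Ctsh, a lysosomal protease, was at 1.65, 1.59 and 1.40 against 2.78, 2.69 and 4.08 CPM. Cyp2d9, a cytochrome P450 of liver, had 1 read in E12wt and 58 in E12KO (ratio 60.9, counting interval 10.5 to 2446), and it belongs to a family whose near-identical members can share reads. Liver transcripts differed between these libraries: albumin (Alb) was at 42.5, 35.6 and 0.252 CPM in E12wt against 30.7, 32.4 and 31.4 in E12KO, and the part of such RNA in the Cyp2d9 and Agt differences was not tested.

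Because E proteins bind E-boxes, the 250 bases before the annotated start were read from RefSeq promoters (build GRCm38.p6) for a few of these genes. They are shown for Bgn, as the only protein-coding gene besides Tdg and the type I collagens that edgeR QL called, for Id2 and Fosb as regulators that DESeq2 called with any 1 library left out, and for Adamts3 as a steady lower call that holds no E-box here. Capitals mark each CANNTG, a motif that reads the same on both strands. The windows are chrX:73483351-73483600 on the plus strand for Bgn, and chr12:25096093-25096342, chr7:19310046-19310295 and chr5:89883335-89883584 on the minus strand for Id2, Fosb and Adamts3.
Bgn: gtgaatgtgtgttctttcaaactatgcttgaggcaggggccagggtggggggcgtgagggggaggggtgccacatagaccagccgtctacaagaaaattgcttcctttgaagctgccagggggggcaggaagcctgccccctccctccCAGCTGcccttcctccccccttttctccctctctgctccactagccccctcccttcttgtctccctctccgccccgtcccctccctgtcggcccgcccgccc
Id2: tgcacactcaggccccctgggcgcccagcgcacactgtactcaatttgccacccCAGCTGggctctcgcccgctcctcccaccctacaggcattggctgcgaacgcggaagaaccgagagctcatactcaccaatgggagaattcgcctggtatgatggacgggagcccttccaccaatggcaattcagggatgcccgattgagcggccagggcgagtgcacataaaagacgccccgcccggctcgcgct
Fosb: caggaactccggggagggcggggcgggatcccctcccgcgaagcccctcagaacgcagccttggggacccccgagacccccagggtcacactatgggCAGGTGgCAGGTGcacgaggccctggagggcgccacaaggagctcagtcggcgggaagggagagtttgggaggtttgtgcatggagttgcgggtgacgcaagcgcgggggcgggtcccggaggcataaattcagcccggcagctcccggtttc
Adamts3: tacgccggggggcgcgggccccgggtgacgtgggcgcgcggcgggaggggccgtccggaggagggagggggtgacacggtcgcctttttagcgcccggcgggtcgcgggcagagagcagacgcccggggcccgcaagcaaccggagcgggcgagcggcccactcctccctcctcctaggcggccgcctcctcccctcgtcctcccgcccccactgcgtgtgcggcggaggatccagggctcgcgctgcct

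Bgn has 1 CAGCTG, whose first base lies 102 bases before the start, and Id2 has 1 CAGCTG at 196 bases. Fosb has a pair of CAGGTG sites at 153 and 146 bases. Such matches are common: CANNTG was found in 66.1% of 27025 promoter windows of this length, and in 28 of the 49 matched genes called by DESeq2 (57.1%). CAGCTG, a subset of CANNTG, was found in 12.7% of all windows and in 7 of the 49 (14.3%), and CACCTG or its reverse complement CAGGTG in 17.1% and 14.3%. A match describes the letters only and is no measurement of binding.

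Whole gene lists were set beside these single genes, with no test, by the count of tested members above 0 and the median log2 fold change. The longest one-sided list was cholesterol synthesis and uptake: all 23 tested members lay above 0, with a median of 0.25, and in 10 the groups did not overlap, against 51.4% above 0 and 7.11% separated in that direction among all genes tested. Hsd17b7, an enzyme of the pathway, was at 51.8, 53.1 and 41.9 CPM in E12wt against 61.2, 77.4 and 77.0 in E12KO. DESeq2 called 2 members, Hsd17b7 among them, and edgeR QL called no member, with 11 at an unadjusted p under 0.05. E12wt replicate 3 was the lowest library here: its median member lay 0.43 below the mean of the 6 libraries on the log2 scale, and the other wild-type libraries at 0.01 and −0.04. Without it 22 of 23 members remained above 0 and the median was 0.15.

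All 22 endoplasmic reticulum (ER) chaperone and stress genes also lay above 0, with a median of 0.16 and 12 separate groups (7.11% of all genes in that direction). Hspa5, the main ER chaperone, was at 1836, 1911 and 1268 CPM in E12wt against 1956, 2226 and 2220 in E12KO. E12wt replicates 1 and 2 lay close under E12KO replicate 1 and further under the other knockout libraries. E12wt replicate 3 lay far under them all. Without that library 21 of 22 members remained above 0 but the median was 0.07. Of 20 lysosomal genes 18 lay above 0 (median 0.14), of 20 genes of fatty acid and lipid handling 18 (0.16), of 18 amino acid transporters and serine enzymes 15 (0.11) and of 16 targets of the stress factor NRF2 13 (0.14). Without E12wt replicate 3 these medians were 0.07, 0.05, 0.06 and 0.09. Txnrd1, a thioredoxin reductase and NRF2 target, had 349, 340 and 321 CPM in E12wt against 379, 385 and 409 in E12KO and was less tied to that library, with a log2 fold change of 0.21 against 0.18 without it.

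Several lists had medians below 0. All 7 tested genes of neuropeptides and secretory granules lay below 0 (median −0.22, and −0.23 without E12wt replicate 3). So did 7 of 11 GABA and glycine receptor genes (−0.20, and −0.11 without it) and 14 of 20 sodium and calcium channel genes (−0.10, and −0.08 without it). Of 3 microglial genes 2 lay below 0 (−0.31, and 0.10 without E12wt replicate 3). Of 15 tested neuronal genes 14 lay below 0, with a median of −0.32 that was −0.24 without E12wt replicate 3. The abundant Map2, a microtubule protein of dendrites, was an exception at 0.03. Besides Nefm, the neuronal nuclear protein gene Rbfox3 was lower, at 3.19, 4.17 and 3.19 CPM in E12wt against 2.58, 2.46 and 2.38 in E12KO, by −0.51 ± 0.17 (DESeq2, BH-adjusted p = 0.396). Of 12 oligodendrocyte lineage genes 11 lay below 0, with a median of −0.49, and here the single library mattered more: without E12wt replicate 3, 7 of 12 lay below 0 and the median was −0.26.

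Within that list, genes of oligodendrocyte precursors differed widely between libraries. Pdgfra, the receptor that defines these precursors, was at 45.9, 44.6 and 92.5 CPM in E12wt against 34.6, 22.4 and 15.2 in E12KO, a log2 fold change of −1.34 ± 0.35 that was −0.92 without E12wt replicate 3. Gpr17, a receptor of maturing precursors, was at 19.9, 15.3 and 38.7 CPM in E12wt against 14.3, 4.72 and 2.29 in E12KO. E12wt replicate 3 was the highest library for both and E12KO replicate 3 the lowest. Neither was called, with BH-adjusted p-values of 0.507 and 0.523 by edgeR QL and 0.293 and 0.458 by DESeq2. Cnp, which encodes an enzyme of myelin-forming cells, had a log2 fold change of −0.39, while Olig1 at −0.10 and Cspg4 at −0.01 stayed close to 0. Mog, a gene of mature myelin, had no read in any of the 6 libraries.

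The median of the markers of the stem cells themselves lay near 0. Of 16 tested stem cell markers 10 lay above 0 with a median of 0.08, or 8 with a median of 0.01 without E12wt replicate 3, and Sox2, Pax6 and Hes5 had log2 fold changes of −0.08, 0.01 and −0.03. The member with the lowest unadjusted p was Tnc, the matrix protein tenascin C, at 714, 931 and 560 CPM in E12wt against 981, 1126 and 1171 in E12KO, 0.57 ± 0.16 on the log2 scale (BH-adjusted p = 0.507 by edgeR QL and 0.0561 by DESeq2). Prom1 was lower, at 13.6, 15.9 and 21.3 CPM in E12wt against 11.4, 13.4 and 13.5 in E12KO, and neither tool called it. Its log2 fold change was −0.41, or −0.22 without E12wt replicate 3. Of the 16 markers, 1 had separate groups higher in E12KO and 1 lower, against 7.11% and 6.66% of all genes tested. Of 15 astrocyte genes 10 lay above 0, with a median of 0.23 that was 0.03 without E12wt replicate 3. Among 19 tested base excision repair genes other than Tdg, 7 lay above 0 with a median of −0.04, which was 0.02 without E12wt replicate 3. In 4 of them, Mbd4, Mpg, Neil3 and Smug1, the groups were separate and lower in E12KO, as in 6.66% of all genes, and neither tool called any. Without that library the log2 fold changes went from −0.30 to −0.18 for Mbd4, from −0.49 to −0.19 for Mpg, from −0.13 to −0.04 for Neil3 and from −0.11 to −0.09 for Smug1.

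Single libraries mattered for other lists too, though the median of immediate early genes stayed above 0 with any 1 left out. The 24 tested genes of glycolysis and hypoxia had a median of −0.15, which was 0.02 without E12wt replicate 3. In that library the hypoxia targets Bnip3 and Pdk1 were at 60.8 and 50.6 CPM, and in the other 5 they reached at most 16.0 and 12.1 CPM. Immediate early genes had a median of 0.30, with 16 of 21 above 0, which was 0.29 without that library but 0.17 without E12wt replicate 1 and 0.15 without E12KO replicate 3. Beside Fosb, its relative Fos was at 39.1, 45.3 and 52.4 CPM in E12wt against 55.8, 61.3 and 55.7 in E12KO, and Klf6 at 178, 227 and 191 against 220, 305 and 290 CPM, neither called. In 5 of the 21 immediate early genes the groups were separate and higher in E12KO (7.11% of all genes), and in 2 separate and lower (6.66%). Of 17 potassium channel genes, with a median of 0.01, DESeq2 called Kcna6 alone, at −0.73. Kcnd2, Kcnc1 and Kcnd3, at −0.40, 0.36 and 0.13, did not pass (DESeq2, BH-adjusted p = 0.115, 0.114 and 0.560). Of the GABA receptor subunits, Gabrb2 was at 2.02, 1.90 and 2.87 CPM in E12wt against 1.19, 1.33 and 1.25 in E12KO, not called.

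**Figure D3:**
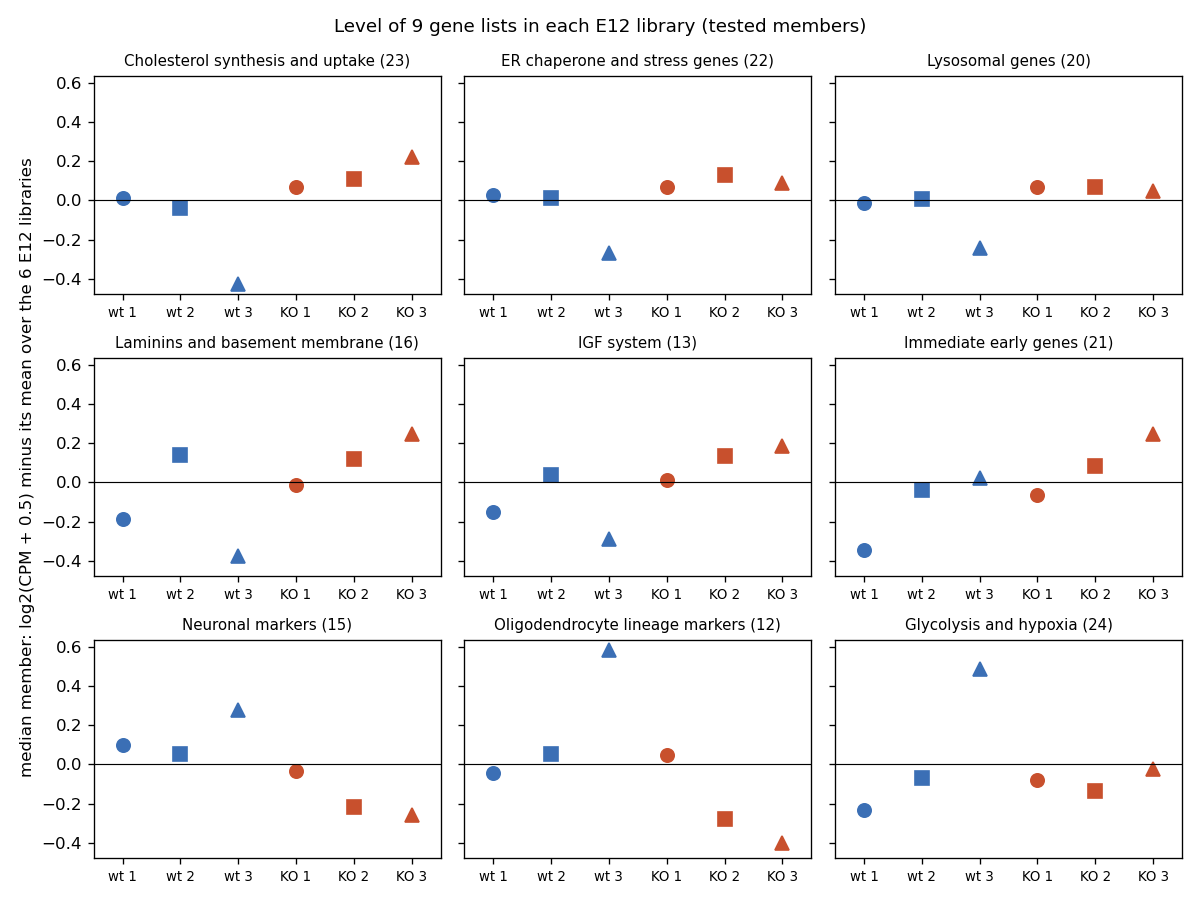
Median over the tested members of 9 gene lists of log2(CPM + 0.5) minus the mean of each gene over the 6 libraries, for each E12wt (blue) and E12KO (red) library, with the number of tested members in brackets. E12wt replicate 3 is the lowest point for cholesterol (−0.43), ER (−0.27) and lysosomal genes (−0.24) and the highest for oligodendrocyte lineage (0.59) and glycolysis and hypoxia genes (0.49), while the other points of the lysosomal panel lie within −0.01 and 0.07.

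**Figure D4:**
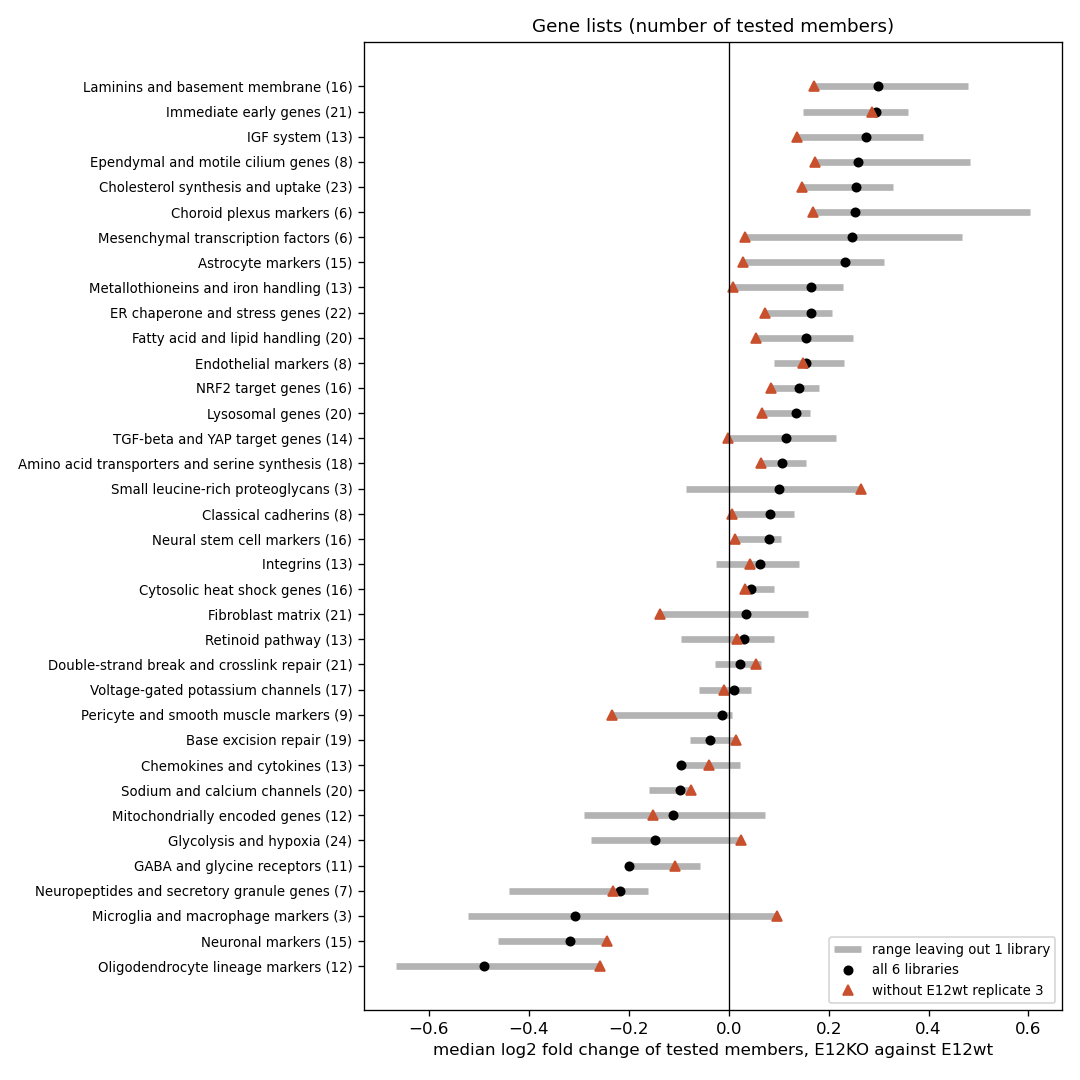
Median log2 fold change of E12KO against E12wt for the tested members of each of 36 gene lists, hepatocyte genes left out (number of members in brackets): black points for all 6 libraries, red triangles without E12wt replicate 3, grey bars for the range when any 1 library is left out. Laminins and basement membrane stand highest (0.30) and oligodendrocyte lineage markers lowest (−0.49), and for the cholesterol, ER and oligodendrocyte lists the red triangle is the end of the bar nearest to 0.

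Tcf3 lies on chromosome 10 of the reference, as do 666 of the tested genes. DESeq2 called 5 of these, where it called 0.515% of all genes: Gm9855, Tdg, 1190007I07Rik, Tcp11l2 and Polr3b. In the order of tested genes, 1190007I07Rik and Tdg lie next to each other, 60 and 61 genes from Tcf3, and Tcp11l2 and Polr3b are neighbours as well, at 75 and 76 genes. Polr3b, a subunit of RNA polymerase III, was at 40.6, 40.6 and 40.4 CPM in E12wt against 49.9, 51.8 and 47.8 in E12KO, a small but even difference of 0.30 ± 0.07 (BH-adjusted p = 0.432 by edgeR QL and 0.0240 by DESeq2). The transcript 1190007I07Rik was at 3.54, 2.29 and 3.01 CPM in E12wt against 1.64, 1.33 and 1.49 in E12KO. Close to Tcf3 itself little differed: of the 50 nearest tested genes, 2 (4.0%, against 8.96% of all genes) had an unadjusted p under 0.05, Cnn2 and Gng7, both with negative fold changes, and none was called by edgeR QL or DESeq2.

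The E47 line gives a second look at the genes called here, with its own wild-type libraries. Of the 76 genes, 72 were tested there, 54 had the same direction, as did 51.4% of all genes tested in both lines, and 15 had separate groups in that direction, as did 5.09% of all. In no gene of the 76 were the E47 groups separate in the opposite direction, as they were for 2.83% of all genes. Besides Tdg, Gm9855 and 2610203C22Rik, the 15 were Adamts3, Gfra1, Lynx1, Sfrp1, Nmnat2, Pkia, Plppr1, Polr3b, Rtl5, Scfd2, Gfod1 and 1190007I07Rik. Adamts3 was at 37.4, 37.8 and 28.8 CPM in E47wt against 23.3, 10.7 and 15.4 in E47KO, and Lynx1 at 23.2, 18.9 and 22.9 against 26.1, 29.4 and 31.3 CPM. Adamts3 was lower in every knockout library of both lines than in the wild-type libraries of its own line. None of these genes but Tdg and Gm9855 passed edgeR QL in the E47 line.

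The difference between the knockout effects was tested as an interaction over all 12 libraries. With edgeR QL no gene of 15277 was called (smallest BH-adjusted p = 0.932), 463 (3.03%) had an unadjusted p under 0.05, and DESeq2 called 1, Xist. That transcript was at 1015 to 1509 CPM in the 6 E12 libraries, all with at most 0.0996 CPM of the Y-linked Kdm5d, Eif2s3y, Uty and Ddx3y, whereas E47wt replicate 2 and the 3 E47KO libraries had at most 0.839 CPM of Xist and 28.0 to 80.4 CPM of the Y-linked genes. Sex and genotype are thus uneven in the E47 line, and their part in the values of that line was not tested. Of the 76 genes, 11 had an unadjusted interaction p under 0.05: Palmd, Fras1, Fosb, Ctsh, Fat4, Igf2r, Pygm, Txn1 and Cyp2d9 of the higher ones, and Tagln and ENSMUSG00000090828 of the lower. Fosb was at 14.6, 27.5 and 15.9 CPM in E47wt against 20.7, 25.8 and 17.3 in E47KO, with overlapping groups and a difference of effects of 1.00 ± 0.37 (edgeR QL, BH-adjusted p = 0.932). Palmd was at 3.37, 3.21 and 2.87 against 3.58, 2.81 and 3.36 CPM there. Id2 and Cdkn1c overlapped in that line too, where Cdkn1c was at 6.38, 8.37 and 4.02 CPM in E47wt against 7.45, 15.8 and 3.93 in E47KO. The libraries of the E47 line spread more, so these values do not show that a gene responds in the E12 knockout only.

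**Figure D5:**
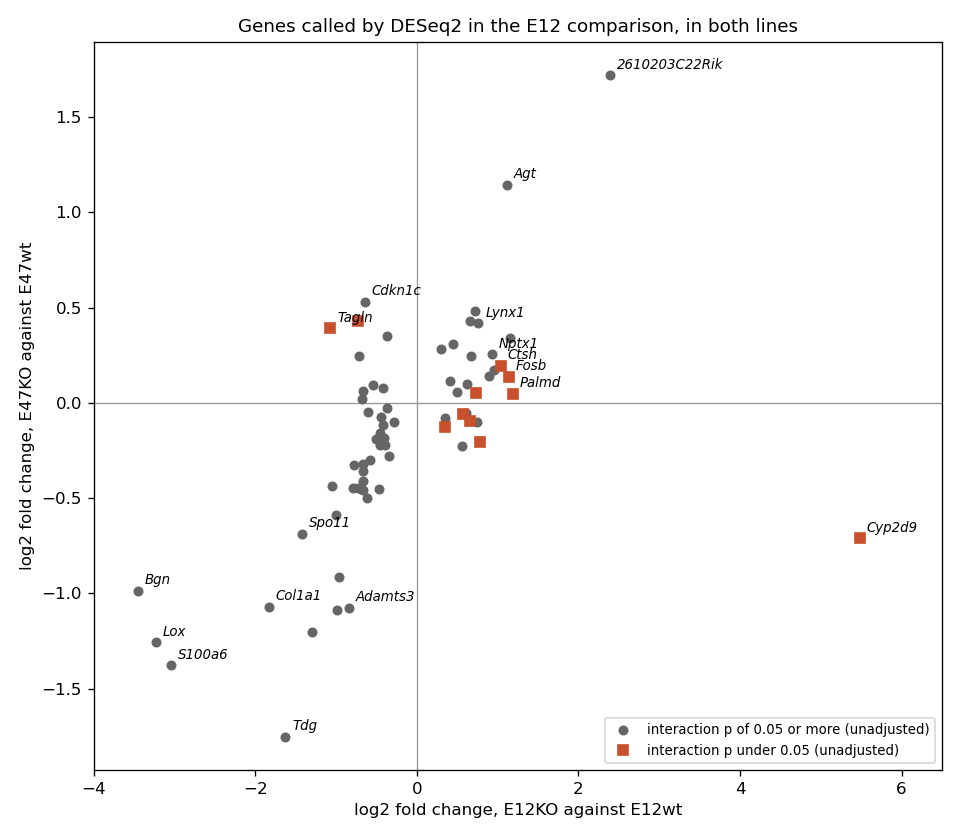
Log2 fold changes of the genes called by DESeq2 in the E12 comparison that were tested in both lines (Gm9855, at 6.91 and 6.73, lies beyond the axes), with E12KO against E12wt on the horizontal and E47KO against E47wt on the vertical axis. Red squares have an unadjusted interaction p under 0.05, none of which holds after adjustment, and most points lie in the quadrants of equal sign but nearer to 0 on the vertical axis.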

How the data were processed

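Stranded messenger RNA libraries were made from 500 ng of RNA, per the labels' protocols. The submitters' processing notes name STAR 2.5, build mm9, DESeq2 and DESeq. For each library the authors deposited read counts per gene as whole numbers, of which the opposite-strand column, with 97.1 to 97.2% of strand-assigned gene reads, was used. Rows that name no gene held 15.4 to 17.5% of the reads in the E12 libraries and were left out. The authors also deposited a table of log2 fold changes and adjusted p-values for this comparison, used only where it is named.

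The test was the quasi-likelihood F test of edgeR 4.0.16 in R 4.3.3 (low-count filter by group, TMM scaling, BH adjustment over all genes tested, threshold 0.05), and DESeq2 1.42.0 was run as an alternative on the genes that pass the same filter. E12 levels are CPM scaled by TMM over the 6 E12 libraries, E47 levels by TMM over all 12. Standard errors of log2 fold changes come from the fit, and counting intervals and the floor of 3 reads cover counting error only. Other alternatives were DESeq2 scaling, a minimum of 1 CPM, no filter, both-strand counts, a replicate block, a fit of all 12 libraries, and each library left out. On simulated counts of 14755 genes for this comparison, 80% of genes changed 2-fold and 95% of those changed 4-fold were recovered, with 17 false calls. Each gene was simulated on its own, with no library that differs in many genes at once as E12wt replicate 3 does. These shares therefore do not measure how many real changes of that size were called.

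Gene names, gene order and promoters came from a GRCm38 reference matched by Ensembl ID (32897 of 37620 IDs; 9 more were named by the deposited table and 4714 kept their ID); no mm9 coordinates are given. The rule for named genes took Tcf3, every edgeR QL call, and, of DESeq2 calls averaging 1 CPM or more and with separate groups, the 15 largest in each direction and the 10 most abundant, plus up to 3 members of each list with separate groups and the lowest p. A few genes the rule picks are left out here. Genes named beyond this rule were picked once their values were known. The members and the 36 lists (631 entries, 630 found) were chosen with earlier results of these data known, and the list of 24 hepatocyte genes was added after liver transcripts were seen.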

Additional observations from a re-analysis of the deposited data

How the results depend on the processing

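The 6 edgeR QL calls became 76 with DESeq2, 20 with no filter on low counts, 2 with all 12 libraries in 1 fit, 4 with a replicate block and 2 to 10 with 1 library left out. The DESeq2 count ranged from 19 to 421 with 1 library left out, an alternative chosen after seeing the data. Same-numbered E12wt and E12KO libraries deviated together at 0.10, 0.07 and −0.02, and pairs of unlike number lay between −0.22 and 0.16. Such values cannot show whether same-numbered libraries share a litter or day, and no sample pairing is given by the labels. The interaction count of 0 was 1 with DESeq2, and 0 to 1 with 1 library left out. Of the neighbours of Tcf3, 0 of 20 had an unadjusted p under 0.05 (edgeR QL) within 10 genes on each side and 9 of 100 within 50. That is 9.0%, against 8.96% of all genes. All 9 were lower in E12KO, where 689 of 14755 genes tested were lower at that p. With 1 library left out, list medians ran from −0.14 to 0.16 for fibroblast matrix, 0.092 to 0.23 for endothelium, −0.52 to 0.10 for microglia, 0.17 to 0.60 for choroid plexus, 0.17 to 0.48 for ependyma, −0.46 to −0.24 for neurons, −0.20 to −0.058 for GABA and glycine receptors, 0.14 to 0.39 for the IGF system, −0.089 to 0.024 for chemokines, −0.44 to −0.16 for neuropeptides, −0.10 to 0.091 for the retinoid pathway, 0.028 to 0.091 for heat shock genes and 0.0082 to 0.23 for metallothioneins and iron handling. For the 172 named genes, 2122 alternative values stayed on the same side of the threshold, 88 gained a call (70 of them with DESeq2) and 20 lost one. Some uncalled genes near 0 changed direction, such as Olig1, with a log2 fold change of −0.10, or 0.03 without E12wt replicate 3. The causes of these differences were not tested. Genes near the floor of 3 reads, such as Col3a1 and Il1rl1 in E12KO, have folds that depth limits.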

Other observations

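Transcripts of liver cells were read at low levels in these libraries, and some of them differed between libraries whose albumin levels were alike. Where these reads came from was not tested. Serpina3k, a liver serine protease inhibitor, was at 0.0437, 0.783 and 0 CPM in E12wt against 3.49, 4.80 and 4.42 in E12KO (scaled over all 12 libraries, as all values here). In the E47 line it was at 0.411, 5.40 and 7.77 CPM in E47wt against 8.47, 0.304 and 0.836 in E47KO. High levels thus occurred in both genotypes of that line, in E47wt replicates 2 and 3 and in E47KO replicate 1. Within each line Mup3, a major urinary protein, split the libraries in the same way. It was at 0.876, 3.12 and 6.34 CPM in E47wt against 5.80, 1.13 and 1.51 in E47KO. In the E12 line it was at 0.569, 0.245 and 0 CPM in E12wt against 1.17, 2.98 and 2.64 in E12KO. Cyp2d9 and Ces3b, a liver esterase, also split the libraries of each line in this way. In the E47 line Cyp2d9 was at 0.0274, 0.409 and 1.06 CPM in E47wt against 0.859, 0.0552 and 0.0356 in E47KO.

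Cyp3a11, a cytochrome P450 that breaks down steroids and drugs, was highest in E12wt replicates 1 and 2 among the E12 libraries, at 1.90, 3.26 and 0.0231 CPM in E12wt against 0.224, 0.125 and 0.0713 in E12KO, while all 6 libraries of the E47 line lay between 2.52 and 4.66 CPM. Over the 22 tested hepatocyte genes the median log2 fold change of E12KO against E12wt was 0.69, and 0.14 without E12wt replicate 3. Mup3, Serpina3k and Cyp2d9 belong to families of near-identical genes, so reads may be split among their members. These genes were picked after their values were seen, and no test was made.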
